A study of Mus musculus with 8 samples.

Results

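Among the tRNA-derived fragments (tRFs) sequenced from sorted pancreatic β-cells, 248 of 2226 listed sequences were 28, 29 or 30 nt long and did not end in CCA, the tail that every mature tRNA carries at its 3′ end. They were taken from the table by exact length and last 3 bases, with no use of their levels, and comprised 82 sequences of 28 nt, 81 of 29 nt and 85 of 30 nt under 31 names. The table lists lengths of 16 to 30 nt, so longer fragments that reach into the anticodon are not analysed here.

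β-cells came from db/db mice, which lack a working leptin receptor and become obese and diabetic (strain BKS.Cg-Dock7m+/+LeprdbJ), and from wild type mice (BKS.Cg-Dock7m+/+). Both genotypes comprised male mice aged 8 weeks, with 4 libraries each. Islets of several mice were pooled for each preparation and the cells were sorted by their autofluorescence, so a library is a pool and not 1 animal. The table holds tRFs only, so β-cell marker RNAs could not be examined. The study's methods give the share of insulin-positive cells in sorted fractions as an average, not for each library, and fewer β-cells and less of a fragment per cell cannot be told apart.

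Mature tRNAs are cut by ribonucleases into fragments whose names follow the side of the molecule they come from. Cleavage in the anticodon loop, for which angiogenin is the best known enzyme under stress, leaves a long 5′ piece and a long 3′ piece, while cuts elsewhere leave shorter 5′ fragments, internal fragments and 3′ fragments. The CCA tail is added after transcription and is where the amino acid is attached. A fragment of this size that lacks CCA is therefore mostly a 5′ fragment that stops shortly before the anticodon loop, an internal piece, or a 3′ piece with an incomplete end.

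The abundant fragments began at the first base of the tRNA and formed steps of 1 nt. The 30-nt forms of 5 of them are shown because the results turn on these tRNAs, with bases 29 and 30 in capitals, so that removing 1 or both capitals gives the 29-nt and 28-nt forms.
Asp-GTC: tcctcgttagtatagtggtgagtatcccCG
Pro-AGG: ggctcgttggtctaggggtatgattctcGC
Val-AAC: gtttccgtagtgtagtggttatcacgttCG
Gly-CCC: gcgccgctggtgtagtggtatcatgcaaGA
Gly-GCC: gcatgggtggttcagtggtagaattctcGC

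A further set began a few bases inside the tRNA, and 17 of its 25 fragments ended at base 31 or later. These 5 are shown because all of them were more abundant in db/db β-cells, with the numbers giving the first and last base in the tRNA and capitals marking bases past base 30, which no listed fragment from base 1 can reach.
Asp-GTC 2-30: cctcgttagtatagtggtgagtatccccg
Asp-GTC 2-31: cctcgttagtatagtggtgagtatccccgC
Asp-GTC 3-32: ctcgttagtatagtggtgagtatccccgCC
Pro-AGG 2-30: gctcgttggtctaggggtatgattctcgc
Val-AAC 3-32: ttccgtagtgtagtggttatcacgttcgCC

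A last set came from the other end of the tRNA. The first 5 kept 1 or 2 bases of the CCA tail, in capitals, and were less abundant in db/db β-cells, whereas the Asp-GTC fragment stopped just before the tail and is shown for contrast.
Phe-GAA: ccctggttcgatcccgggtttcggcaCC
Cys-GCA: ccctggttcaaatccgggtgccccctCC
Asn-GTT: tggtggttcgagcccacccagggacgCC
Pro-AGG: tcccgggttcaaatcccggacgagcccC
Tyr-GTA: ggtcgctggttcgattccggctcgaaggaC
Asp-GTC: gaccggggttcgattccccgacggggag

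The 8 libraries held 582165 to 2946290 tRF counts, of which 7122 to 15131 per wild type library and 7428 to 23914 per db/db library fell in the 28 to 30-nt non-CCA set. The largest library was 1 of db/db. tRFs made up 22.6 to 55.7% of the library totals implied by the deposited RPM in wild type and 20.01 to 55.4% in db/db. No pair of libraries of a genotype agreed within counting noise over these fragments, with chi-square per degree of freedom of at least 3.34, so all 8 were kept as separate samples. Nothing in the labels gives a batch or ties a wild type library to a db/db library.

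Single fragments were mostly sparse: the median was 171.5 counts over all 8 libraries, the range was 41 to 8921, and 56 of 248 fragments had fewer than 100. The 3 most abundant held 16.8% of the counts and the 10 most abundant 34.1%. Most were close relatives of each other, since 212 of 248 shared all but 1 end base with another fragment of their tRNA, so they are not independent measurements. In counts pooled over the 8 libraries Asp-GTC led with 57 fragments and 35.5% of the counts, followed by Glu-CTC with 8.74%, Pro-AGG with 8.28%, Val-AAC with 6.93%, Cys-GCA with 6.80% and Gly-CCC with 6.62%. Below Asp-GTC the order differed between the genotypes, since by mean share over libraries Gly-CCC came next in wild type (8.51% ± 5.26) and Pro-AGG in db/db (9.31% ± 3.36).

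The leading tRNAs differed in which part of the molecule they supplied. In the pooled counts, fragments from base 1 held all of Gly-GCC, and 93.7% of those of Gly-CCC, 92.7% of Val-AAC, 88.5% of Gly-TCC and 80.9% of Pro-AGG. They held 49.9% for Asp-GTC and 38.5% for Glu-CTC, and only 7.75% for Cys-GCA, whose fragments came mainly from around the anticodon. Over all names 70 fragments from base 1 held 60.0% of the counts, 25 fragments from bases 2 to 5 held 7.85%, and the 15 that stopped 1 to 3 bases short of the mature 3′ end held 5.97%. The other 113 placed fragments were internal or 3′ pieces, and 25 fragments, among them all 16 of His-GTG, could not be placed by overlap.

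Each of the tRNAs whose fragments are shown above has several genes. RefSeq lists 16 genes by symbol for Asp-GTC on 6 chromosomes of GRCm38.p6, 5 of them on chromosome 1 between 171037029 and 171102442. Of 56 Cys-GCA genes, 48 lie on chromosome 6 between 47978997 and 48363603. The 14 Gly-GCC genes are spread over 7 chromosomes. The genes were matched by symbol and not by sequence.

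The genotypes were first compared fragment by fragment, by edgeR on all sequences in the table, with calls at an adjusted p below 0.1 and more than a 2-fold difference. Of the 248 fragments, 181 passed the filter on low counts. Of these 12, or 6.63%, were called higher in db/db, beside 5.57% of all 1832 sequences tested, and 13, or 7.18%, were called lower, beside 9.44% of all sequences tested. The 4 db/db libraries lay wholly above or wholly below the 4 wild type libraries for 27 of the 181, or 14.9%, beside 17.1% over the table. The median log2 fold change was 0.10 for the set and 0.00 for all sequences. Both shares of calls were near those of the whole table. By length, 1 of 57 tested fragments of 28 nt was higher and 5 were lower, against 4 and 5 of 59 at 29 nt and 7 and 3 of 65 at 30 nt. These values were scaled by TMM. When scaled by the library totals implied by counts and RPM the split was 7 higher and 13 lower, and by the effective sizes behind the deposited log2 values it was 4 higher and 10 lower, and the median of all sequences became -0.36 and -0.51. Without wild type library 3 it was 32 higher and 15 lower.

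Fragments that began at bases 2 to 5 supplied 9 of the 12 higher calls. Of these 25 fragments 18 were tested, of which 9 were called higher and none lower, and the median log2 fold change was 1.5. Of 63 tested fragments from base 1, 2 were higher and 6 lower by the same call, and the median was -0.46. The position classes were drawn after the values were known and are given as descriptions without a test. Positions are counted from the first base of the tRNA; in Asp-GTC the anticodon began at base 34.

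Asp-GTC supplied 5 of the higher calls, all among its 10 fragments that began at bases 2 to 5. The level of the fragment from base 2 to base 31 (CPM, TMM-scaled counts relative to library size) was 116, 62.3, 78.9 and 54.8 in wild type libraries and 203, 209, 291 and 339 CPM in db/db. The db/db libraries were all higher (log2 fold change 1.75, SE 0.37, adjusted p = 0.00112 by edgeR), but the call was lost when counts were scaled by the implied totals (1.44, adjusted p = 0.114) or by the effective sizes (1.33, adjusted p = 0.451). The fragment from base 3 to base 32 rose further, from 49.8, 9.48, 18.5 and 19.3 CPM to 208, 143, 183 and 203 CPM (log2 fold change 2.95, adjusted p = 5.43e-05). The form from 2 to 30 rose by a log2 fold change of 2.03. The form from 3 to 31 had 4, 7, 6 and 4 counts in wild type and 67, 11, 84 and 69 in db/db. It was called higher, but it passed the low-count filter through db/db alone and its fold is not given.

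The most abundant Asp-GTC fragment, from base 1 to base 29, was not called. It was at 854, 1125, 1344 and 918 CPM in wild type and 1205, 861, 874 and 1594 CPM in db/db, and the genotypes overlapped widely (log2 fold change 0.10, SE 0.33, adjusted p = 0.893). The form ending at base 30 was at 333 ± 226 and 698 ± 376 CPM (log2 fold change 1.07, adjusted p = 0.143). Fragments from bases 2 to 5 made up 10.6% ± 4.93 of Asp-GTC counts from bases 1 to 5 in wild type and 24.5% ± 6.54 in db/db (SD, n = 4), with ranges of 7.36 to 17.9% and 19.2 to 34.1%.

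Late starts of Pro-AGG and Val-AAC supplied 2 further calls. The Pro-AGG fragment from base 2 to base 30 rose from 17.8, 12.2, 10.1 and 10.04 CPM to 38.6, 28.9, 19.6 and 56.8 CPM (log2 fold change 1.53, adjusted p = 0.0555). This call was lost under 6 of 14 alternatives, namely scaling by the implied totals (1.07, adjusted p = 0.273) or the effective sizes (0.76, adjusted p = 0.632) and leaving out wild type library 2 or 4 or db/db library 1 or 4 (adjusted p between 0.107 and 0.181). The Val-AAC fragment from base 3 to base 32 was called (1.69, adjusted p = 0.0512) although 1 db/db library, at 14.4 CPM, lay within the wild type range of 4.06 to 16.8 CPM. Late starts of Gly-CCC, of the initiator tRNA iMet-CAT and of Ile-AAT had log2 fold changes between -0.34 and 0.44, with 0 of 4 called by edgeR and 0 at an unadjusted p under 0.05.

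Over all tRNAs, late starts made up 7.34, 4.16, 4.44 and 4.21% of the counts from bases 1 to 5 in wild type and 13.5, 12.2, 20.8 and 12.6% in db/db. All 4 db/db libraries were above the wild type libraries. At 24 to 27 nt the same share was 3.72% ± 1.23 in wild type libraries and 3.63% ± 0.897 in db/db libraries, and 0 of 16 tested late starts of that size were called by edgeR (1 at an unadjusted p under 0.05). Where a late start and a fragment from base 1 ended at the same base, the share of the late start overlapped between the genotypes in all 8 pairs. For Asp-GTC ending at base 30 it averaged 10.3% ± 6.61 in wild type libraries and 17% ± 9.04 in db/db libraries. Most late starts, 17 of 25, ended at base 31 or later, where the matching fragments from base 1 would be longer than the table lists.

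The 3′ ends of these fragments bear on the same comparison. Among tested fragments from base 1, the median log2 fold change was -0.46 for those that ended at base 28, -0.76 at base 29 and 0.06 at base 30. Among tested late starts it was 1.03 at base 29 (1 fragment), 0.98 at base 30, 1.17 at base 31 and 1.69 at base 32. Of the 11 late starts that ended at base 32, 9 were tested and 5 were called higher. Start and end are tied by the length limit, so their parts in the difference cannot be told apart.

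Of the 13 lower calls, 6 were of fragments from base 1 and 7 lay at the opposite end of the tRNA. In all, 8 fragments of 7 tRNAs ended with 1 or 2 bases of the CCA tail. Of these, 6 were tested and all 6 were called lower in db/db. The Cys-GCA, Tyr-GTA and 30-nt Pro-AGG fragments passed the low-count filter through wild type alone, and their folds are not given. The rest of the tested ones had log2 fold changes from -4.58 to -2.21. The 2 that were too sparse to test, of Ala-CGC and Lys-TTT, were also lower in every db/db library than in any wild type library. Together the 8 made up 5.67, 10.2, 2.01 and 4.27% of the set in wild type and 0.339, 0.444, 0.740 and 0.268% in db/db.

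The Phe-GAA fragment that ended in CC fell the furthest. It was at 500.0, 774, 151 and 182 CPM in wild type and 3.86, 14.4, 32.4 and 12.4 CPM in db/db, a log2 fold change of -4.58 (SE 0.59, adjusted p = 8.30e-06). The wild type libraries differed several-fold among themselves, yet the lowest of them exceeded the highest db/db library. The Cys-GCA fragment ending in CC was at 65.9 ± 33.9 CPM in wild type and 4.51 ± 1.82 CPM in db/db. The Tyr-GTA fragment ending in a single C was at 72.5 ± 52.3 and 4.76 ± 1.89 CPM. Both were called lower, but they passed the low-count filter through wild type alone and their folds are not given. The 28-nt Pro-AGG fragment fell from 58.4 ± 25.2 to 10.7 ± 2.94 CPM (-2.48, adjusted p = 0.000785) and the Asn-GTT fragment from 36.4 ± 17.5 to 7.91 ± 4.96 CPM (-2.21, adjusted p = 0.0142). These 5 calls held under every alternative tried.

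For 5 of the 8, the table also lists the fragment with the same first base and a complete CCA. edgeR called 0 of these complete forms, 1 had an unadjusted p under 0.05, and their log2 fold changes were between -1.24 and 0.45. The complete Cys-GCA form was at 149 ± 26.5 CPM in wild type and 188 ± 35.3 CPM in db/db (log2 fold change 0.32, adjusted p = 0.636). The form without the last A made up 18.6, 39.6, 29.5 and 29.9% of the Cys-GCA pair in wild type and 2.05, 1.61, 3.37 and 2.29% in db/db. For Phe-GAA the corresponding shares were 18.2, 24.2, 23.1 and 17.3% and 0.808, 2.97, 2.48 and 3.66%. In all 5 pairs the shares of the 2 genotypes did not overlap. The partial-tail form of each pair was already known to be lower in every db/db library, and the shares were not tested.

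Fragments that had lost the whole tail were not called. Of 7 that stopped just before CCA, 6 of them from Asp-GTC, 5 were tested and none was called by edgeR, while 1 of the 5 had an unadjusted p under 0.05. The 28-nt Asp-GTC form was at 128, 47.4, 151 and 123 CPM in wild type and 111, 99.3, 151 and 156 CPM in db/db. Their share of the set was 3.07% ± 0.835 and 3.60% ± 1.44. Among the 5, the Gly-ACC fragment (-1.41, adjusted p = 0.180) was the 1 whose genotypes did not overlap, with lower levels in db/db. Since 6 of 7 came from 1 tRNA, the kind of end and the tRNA cannot be told apart here.

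A partial tail was far more common in shorter fragments, where the difference had the same direction. Of sequences that kept 1 or 2 bases of the tail, 49 of 53 tested were called lower at 16 to 19 nt, 28 of 32 at 20 to 23 nt and 26 of 26 at 24 to 27 nt. At 24 to 27 nt they made up 26.2% ± 10.6 of non-CCA counts in wild type libraries and 5.57% ± 4.31 in db/db libraries. At 28 to 30 nt the corresponding shares were 5.55% ± 3.47 and 0.448% ± 0.208.

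One other fragment from the 3′ side was called. A Phe-GAA fragment that stopped 5 bases before the mature end was at 48.0, 90.7, 28.6 and 20.9 CPM in wild type and between 1.78 and 4.16 CPM in db/db. It was called lower, but it passed the low-count filter through wild type alone and its fold is not given. It was 1 of 78 tested internal and 3′ fragments outside the classes above, of which none was called higher. Their median log2 fold changes were 0.36 for the 38 that began at base 6 or later and 0.19 for the 40 that stopped more than 3 bases before the mature end. Cys-GCA supplied 24 of the tested fragments of the set with a median of 0.44, and 1 of them, the partial-tail fragment above, was called. Its leading fragment, from base 24 to base 53 across the anticodon loop, was at 148 ± 93.0 and 114 ± 23.2 CPM (-0.36, adjusted p = 0.667, with 0.15 without wild type library 1). The 7 tested His-GTG fragments had log2 fold changes between -0.34 and 0.89, with 0 called by edgeR and 0 at an unadjusted p under 0.05.

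The fragments from base 1 included 8 calls with no common direction. The 28-nt Gly-GCC fragment was at 60.5, 29.8, 80.6 and 71.8 CPM in wild type and 214, 179, 170 and 247 CPM in db/db, so that the genotypes were well apart (log2 fold change 1.74, SE 0.38, adjusted p = 0.00155). The call was lost on scaling by the effective sizes (1.38, adjusted p = 0.387). The 30-nt form was at 70.1 ± 23.8 and 137 ± 57.6 CPM (0.96, adjusted p = 0.134), and the 29-nt form, too sparse to test, at 5.39 ± 4.47 and 37.1 ± 23.6 CPM without overlap. A 30-nt Ala-AGC fragment was also higher (1.37, adjusted p = 0.0734), whereas a 29-nt fragment of a second Ala-AGC sequence was lower (-1.59, adjusted p = 0.0576), and these calls were lost under 5 and 4 of 14 alternatives, among them leaving out wild type library 2 (adjusted p = 0.211 and 0.170), with adjusted p of up to 0.473 and 0.179. The other lower calls were the 30-nt and 29-nt Leu-AAG forms (-2.14 and -1.19), and the 29-nt forms of Phe-GAA (-1.53), Leu-CAG (-1.42) and Val-AAC (-1.01), with overlapping libraries for Phe-GAA and Val-AAC.

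The fragments from base 1 with the highest normalised count in each of the remaining leading tRNAs were not called. The 30-nt Gly-CCC fragment ranged from 311 to 1404 CPM in wild type and from 239 to 635 CPM in db/db (-0.64, adjusted p = 0.456). The 28-nt Pro-AGG fragment ranged from 169 to 474 and from 138 to 772 CPM (0.56, adjusted p = 0.500), a direction that turned on scaling by the effective sizes. The 30-nt Pro-AGG fragment, with nearly the same abundance, was at 208, 248, 299 and 319 CPM in wild type and 662, 509, 183 and 820 CPM in db/db. It narrowly missed the call (1.01, SE 0.39, adjusted p = 0.105), and the largest db/db library lay below all wild type libraries. The 28-nt Val-AAC fragment was at 457 ± 92.0 and 311 ± 90.8 CPM (-0.56, adjusted p = 0.370), the 29-nt Gly-TCC fragment at 235 ± 154 and 140 ± 61.9 CPM (-0.76, adjusted p = 0.374), the 30-nt iMet-CAT fragment at 168 ± 81.8 and 209 ± 39.0 CPM (0.31, adjusted p = 0.687, and -0.09 by the effective sizes) and the 28-nt Lys-CTT fragment at 136 ± 31.2 and 98.4 ± 28.4 CPM (-0.47, adjusted p = 0.500). In each of these the libraries of the genotypes overlapped.

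One fragment shared its first 29 bases with another tRNA. The 30-nt Pro-TGG fragment differs from the Pro-AGG fragment shown above by C30G, with Pro-AGG as the reference and positions from the first base. It was at 8.90, 9.48, 36.95 and 35.5 CPM in wild type and 83.1, 84.8, 25.8 and 116 CPM in db/db, and was called higher (1.73, adjusted p = 0.0314) although the largest db/db library lay inside the wild type range. Its 28-nt and 29-nt forms are the same letters in both tRNAs and are listed under Pro-AGG only.

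The steps from base 1 differed in shape between tRNAs. In 18 sequences all 3 lengths were listed. In pooled counts the 29-nt form was the most frequent in 6 of them, among them Gly-TCC, where the 28-nt form had the higher mean share in db/db (44.6 against 38.9%). It was the least frequent in 2, Pro-AGG and Gly-GCC, both of which read C-G-C from base 28 to base 30. Of Pro-AGG counts 45.3% were of 28 nt, 9.36% of 29 nt and 45.4% of 30 nt, and the 29-nt share stayed between 3.64 and 13.1% in all 8 libraries. Of Gly-GCC counts 52.8, 7.98 and 39.2% were of the 3 lengths, with a 29-nt share between 1.47 and 12.1%. The order of the other lengths of Gly-GCC differed between the genotypes, with mean shares of 44.4% at 28 nt and 52.1% at 30 nt in wild type against 55.4 and 35.5% in db/db. Asp-GTC was the opposite, with 53.0% at 29 nt, and Gly-CCC rose with length to 71.3% at 30 nt.

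Several tRNAs were present as pairs of fragments with the same start and length that differ at 1 base. Of these, 3 pairs are shown, with the differing base in capitals and the more abundant fragment first.
Asp-GTC, G20T: tcctcgttagtatagtggtGagtatcccc
Asp-GTC, second form: tcctcgttagtatagtggtTagtatcccc
Val-AAC, G26A: gtttccgtagtgtagtggttatcacGtt
Val-AAC, second form: gtttccgtagtgtagtggttatcacAtt
Gly-GCC, G5T: gcatGggtggttcagtggtagaattctc
Gly-GCC, second form: gcatTggtggttcagtggtagaattctc
The token gives the base of the more abundant form, the position from the first base of the tRNA and the base of the other form.

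Of 24 such pairs, the share of the less abundant form overlapped between the genotypes in 21. The exceptions were pairs of Val-AAC, Asp-GTC and Glu-TTC. The Val-AAC second form at 28 nt made up 8.61, 4.0, 5.68 and 6.58% of its pair in wild type and 10.5, 13.6, 16.8 and 14.3% in db/db, and the Asp-GTC second form at 29 nt 14.1% ± 0.895 and 10.4% ± 0.945. For Glu-TTC (C6T) at 30 nt the shares were 50.6% ± 9.54 and 34.6% ± 7.33, with overlap at 28 and 29 nt. At 28 nt the Asp-GTC second form overlapped between the genotypes (8.70% ± 2.02 and 8.09% ± 1.42). The Gly-GCC second form at 28 nt made up 16.7% ± 9.05 and 4.43% ± 3.07, with overlapping libraries. The second form of the late-start Asp-GTC fragment from base 3 to base 32 had 2, 0, 3 and 3 counts in wild type and 44, 18, 72 and 41 in db/db. It was called higher, but it passed the filter through db/db alone and its fold is not given. The pairs were compared after the values were known and their shares were not tested.

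Counts were then summed by tRNA name, which lessens the sparseness of single fragments. Of 31 sums 28 were tested; 2 were called higher, beside 2.95% of all 305 sums in the table, and 3 lower, beside 9.84%. With the implied totals the split was 0 higher and 5 lower, and with the effective sizes 0 higher and 3 lower. Gly-GCC rose from 104, 118, 218 and 182 CPM to 478, 348, 289 and 611 CPM (log2 fold change 1.47, SE 0.35, adjusted p = 0.00532). This call was lost with the implied totals (0.96, adjusted p = 0.146) and with the effective sizes (0.77, adjusted p = 0.669). Pro-TGG, a single fragment, was also higher (1.88, adjusted p = 0.0248), a call lost with both of these scalings (1.41 and 1.19) and without wild type library 2 (1.51, adjusted p = 0.110). Phe-GAA fell from 853, 1572, 438 and 372 CPM to 117, 234, 316 and 116 CPM (-2.04, adjusted p = 0.00282). Asn-GTT (-2.07, adjusted p = 0.0198) and Tyr-GTA were also called lower, and each consisted of the partial-tail fragment described above. Tyr-GTA passed the low-count filter through wild type alone and its fold is not given.

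The sums of the other leading tRNAs were not called. Asp-GTC had a log2 fold change of 0.61 (adjusted p = 0.278), which became -0.06 with the effective sizes. Glu-CTC had 0.28 (adjusted p = 0.663) with -0.15 by the implied totals and -0.30 by the effective sizes. Pro-AGG was at 0.66 (adjusted p = 0.366), Cys-GCA at 0.36 (adjusted p = 0.657), Val-AAC at -0.18 (adjusted p = 0.794), Gly-CCC at -0.40 (adjusted p = 0.609), Gly-TCC at -0.29 (adjusted p = 0.758), iMet-CAT at 0.29 (adjusted p = 0.657) and Lys-CTT at -0.37 (adjusted p = 0.572). The values of Pro-AGG, Cys-GCA and iMet-CAT fell below 0 with the implied totals and the effective sizes. These scalings moved the median of all sums in the table from 0.06 to -0.48 and -0.66, and the sums of these 3 tRNAs, Asp-GTC and Glu-CTC lay above that median under both.

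Shares within a library need no scaling, and 7 of them were compared by two-sided exact permutation tests over the 70 ways to split the libraries. The set made up 1.004, 1.40, 1.55 and 1.20% of tRF counts in wild type and 1.65, 1.28, 0.812 and 2.09% in db/db, which overlapped (exact permutation p = 0.629, adjusted p = 0.629). Of non-CCA counts it made up 13.1, 12.1, 15.9 and 18.7% in wild type and 21.1, 21.1, 21.9 and 23.96% in db/db. All 4 db/db libraries were higher (exact permutation p = 0.0286, the smallest this design allows, adjusted p = 0.05), which is at the limit of 0.05 and not below it. When fragments that kept part of the tail, which were most frequent at shorter lengths, were left out of the whole table the shares were 18.95% ± 2.90 and 23.1% ± 1.52, with overlapping libraries (exact permutation p = 0.0857, adjusted p = 0.15).

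Within the set no single length had an adjusted p below 0.05. Fragments of 30 nt made up 37.3, 26.5, 36.2 and 35.0% of counts in wild type and 38.0, 39.4, 42.9 and 39.5% in db/db, without overlap (exact permutation p = 0.0286, adjusted p = 0.05). Those of 29 nt made up 35.0% ± 3.26 and 31.7% ± 0.942 (exact permutation p = 0.0286, adjusted p = 0.05), and those of 28 nt 31.3% ± 1.88 and 28.3% ± 2.64 (exact permutation p = 0.114, adjusted p = 0.16). Wild type library 2 lay well below the other wild type libraries at 30 nt, and without it the difference (db/db minus wild type) went from 6.21 to 3.79 percentage points at 30 nt and from -3.28 to -1.65 at 29 nt. Without db/db library 3 the difference at 28 nt went from -2.93 to -1.63. Without late starts the 30-nt shares were 33.3% ± 4.86 and 37.9% ± 1.56 and overlapped (exact permutation p = 0.0571, adjusted p = 0.1).

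Asp-GTC made up 25.3, 24.2, 32.4 and 31.7% of the set in wild type and 39.0, 33.7, 41.1 and 40.3% in db/db. The libraries did not overlap (exact permutation p = 0.0286, adjusted p = 0.05). Without late starts the shares were 27.7% ± 4.59 and 36.1% ± 2.94. Fragments that begin exactly as their tRNA begins made up 61.7% ± 2.68 and 57.6% ± 4.57 (exact permutation p = 0.2, adjusted p = 0.233), a difference of -4.06 percentage points that became -2.305 without db/db library 3. The direction turned when starts at bases 1 to 3 were accepted, with shares of 65.5% ± 2.66 and 67.4% ± 3.80.

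The balance between long and short non-CCA fragments was examined in the 8 leading tRNAs. Fragments of 28 to 30 nt made up 2.65, 4.53, 5.55 and 10.8% of non-CCA Pro-AGG counts in wild type and 18.6, 17.5, 9.24 and 23.2% in db/db (exact permutation p = 0.0571, adjusted p = 0.229). Only the largest db/db library fell within the wild type range. For Asp-GTC they made up 33.1% ± 4.26 and 40.2% ± 4.05 (exact permutation p = 0.0571, adjusted p = 0.229). The other 6 had exact permutation p-values of 0.0857 or more. With 8 tests a single share at the smallest p of 0.0286 would have an adjusted p of 0.229, so the design could not call 1 share alone.

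The study used a PCR assay for Gly-GCC fragments. Its target is 31 nt long, and the 30-nt fragment shown above lacks 1 base of it.

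The microRNA name mmu-mir-1983 was given to 2 fragments. Both lie in the RefSeq hairpin Mir1983 on the minus strand of chromosome 13 in GRCm38.p6, the 29-nt form at 21896994 to 21897022 and the 30-nt form at 21896994 to 21897023. The 29-nt form was at 17.16 ± 11.6 and 10.4 ± 5.95 CPM (-0.59, adjusted p = 0.630), and the 30-nt form was too sparse to test.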

How the data were processed

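Libraries were prepared with unique molecular identifiers from small RNA of sorted β-cells and sequenced single-end. Reads over 16 nt were collapsed by identifier and aligned without mismatches to mature tRNAs, with GRCm38.p6 as genome build per the labels. The authors deposited 1 table with, for each sequence and library, whole-number counts, RPM rounded to whole numbers (treated as a score) and log2 values whose normalisation the sources used here do not give. Only the counts were tested. The table also holds the direction of change in words from the authors' own comparison, which was not used.

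The counts of all sequences were fitted with edgeR 4.0.16 (TMM, filterByExpr with a minimum count of 10, quasi-likelihood test, Benjamini-Hochberg adjustment) on R 4.3.3. The fitting procedure was tested on simulated counts. DESeq2 1.42.0, RLE factors, the library totals implied by the rounded RPM, the effective sizes implied by the deposited log2 values, no low-count filter, a stricter one (10 counts in 4 libraries) and leaving out each library were alternatives. CPM are TMM-scaled. Families are counts summed by tRNA name, CCA end and length bin.

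A tRNA's start was taken as the 8 bases that begin its most abundant set of at least 5 non-CCA sequences. Other sequences were placed by exact overlaps of at least 10 bases from that start, with up to 2 mismatches in the first 8 bases, or of at least 12 bases with sequences that end in CCA. Shares were compared by exact permutation with Benjamini-Hochberg adjustment over 7 or 8 tests. Depth was 582165 to 2946290 counts per library, and errors are SD over 4 libraries.

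Named fragments were the most abundant of the 10 leading names and of Glu-CTC, Gly-GCC and Asp-GTC, and up to 6 higher and 6 lower called fragments with the largest non-overlapping changes, 1 per name and direction; other fragments with values, among them the further called ones, were chosen after their values were seen. Members, lists and tests were chosen with earlier results of these data known, and position and tail classes after the member values were seen. Single fragments of 1 tRNA are not reported here, although they enter the counts of calls. The p-values measure the spread between these libraries, which may be partly technical.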

Additional observations from a re-analysis of the deposited data

Results flagged for a closer look

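Of 98 sets of 4 libraries examined, 2 held a library far from the other 3, and chance gives about 1 in 20. In both, that library was wild type library 2. The share of 29 nt among counts of 28 to 30-nt non-CCA fragments was 39.9% there, against 33.2 to 33.5% in the other wild type libraries. The share of fragments that begin exactly as their tRNA begins was 65.7%, against 60.3 to 60.4%.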

How the results depend on the processing

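No paired analysis was possible because no replicate number in the labels is shared by the genotypes. The 25 calls among single fragments became 14 with the effective sizes of the deposited log2 values and ranged from 20 to 47 when each library was left out, the highest without wild type library 3. The 5 calls among sums by tRNA, 2 higher and 3 lower, became 0 and 3 with the effective sizes (3 in all) and 0 and 5 with the implied totals. Over all sequences, scaling by the implied totals moved the median log2 fold change to -0.36 and by the effective sizes to -0.51, and over all sums by tRNA to -0.48 and -0.66, and fragments and sums below are to be read against these. With the implied totals the Asp-GTC fragment of 29 nt became -0.31, and the sums of Cys-GCA, Glu-CTC, Pro-AGG and iMet-CAT became -0.10, -0.15, -0.04 and -0.20. With the effective sizes the 29-nt Asp-GTC, 28-nt Pro-AGG and 30-nt iMet-CAT fragments became -0.53, -0.27 and -0.09, and the sums of Asp-GTC, Cys-GCA, Glu-CTC, Pro-AGG and iMet-CAT -0.06, -0.34, -0.30, -0.41 and -0.38. Leaving out each library gave -0.02 (without db/db library 4) to 0.29 for the 29-nt Asp-GTC fragment, -0.62 to 0.15 (without wild type library 1) for the 30-nt Cys-GCA fragment and -0.0 (without db/db library 4) to 0.73 for the sum of Cys-GCA. None of these was called under any setting. The difference in the share of tRF counts, 0.168 percentage points, became -0.121 with implied totals as the denominator (0.520% ± 0.184 and 0.400% ± 0.0468). The difference in the share of fragments from the tRNA start became 1.83 when starts at bases 1 to 3 were accepted, and -4.09 with up to 2 mismatches, a rule added after the data were seen. Leaving out fragments with a partial tail or late start was also added then. Without db/db library 4 the difference in the share of tRF counts was -0.042. Of the shares of long fragments within single tRNAs, that of Gly-TCC (-0.38) ranged from -3.002 to 2.16, above 0 without wild type library 2 or 4 or db/db library 2 or 3, and that of Phe-GAA (1.35) from -0.58 (without db/db library 2) to 2.66 when each library was left out. Without the most abundant non-CCA sequence of the tRNA these became -0.99 and 5.995 (exact permutation p = 0.771 and 0.0571). Shares not named here kept their direction. The 5 named calls of partial-tail fragments held in all 14 alternatives. Fragments with few counts limit what can be called: 67 of 248 were not tested.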
